A study of Mus musculus with 37 samples.

Results

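Brown adipocytes burn fatty acids to make heat, and 8 genes of that program were followed here through the mouse urinary tract: Adrb3, Ppargc1a, Prdm16, Dio2, Ucp1, Cidea, Elovl3 and Fabp3. They were chosen by name, as the rows with these symbols in a table of 24421 gene symbols. RNA-seq of whole tissue covered 37 libraries from female WT mice of the BALB/c strain, some of which drank BBN, a nitrosamine carcinogen, for about 18 weeks while control mice drank tap water. In mice given BBN, UT is a ureter from a side with cancer (11 libraries) and UN one from a side without (7 libraries), and U is a ureter of an untreated mouse (6 libraries, both ureters of 3 mice). The same BBN-treated mice gave 10 bladders and the same untreated mice 3. The library name of BBN bladder 6 carries a T where the other BBN bladders carry an N, and the study's own comparisons count 1 UT library fewer than the labels. All groups share genotype, strain and sex, and the labels give no age. The libraries are whole tissue, UT 5 holds both ureters of 1 mouse as UT 5R and UT 5L, and p-values take libraries as independent except where the mouse is named in the fit. Levels are given as CPM, a gene's counts scaled to its library's total. Library totals were 9724412 to 16735702 counts in UT, 4674970 to 14973744 in UN, 12979876 to 18793434 in U, 3557553 to 15104275 in BBN bladders and 14348536 to 16617322 in untreated bladders, and 1 UN library (UN 6) and 3 BBN bladders (1, 3 and 4) held under 8000000.

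In brown fat, noradrenaline from sympathetic nerves acts on the β3-adrenergic receptor, the product of Adrb3, and cAMP then drives both lipolysis and the transcription of thermogenic genes. PGC-1α (Ppargc1a) and PRDM16 (Prdm16) are transcriptional regulators of mitochondrial and brown fat genes, and type 2 deiodinase (Dio2) turns the prohormone thyroxine into its active form inside the cell. UCP1 (Ucp1) lets protons leak across the inner mitochondrial membrane so that fuel is burned as heat. CIDEA (Cidea) is a lipid droplet protein, ELOVL3 (Elovl3) lengthens fatty acids and FABP3 (Fabp3) carries them. White adipocytes of mice also express Adrb3, while Ppargc1a and Fabp3 are also used by kidney and muscle. Fat around the mouse kidney is known to hold brown adipocytes.

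In the untreated urinary tract, the ureter carried the receptor and the effectors and the bladder nearly lacked Ucp1. Of the 8 genes, 4 were called higher in U than in untreated bladder (Ucp1, Cidea, Elovl3 and Adrb3) and 0 lower, where a call needs an edgeR FDR under 0.1 and a change of at least 2-fold. Over all 18959 genes tested in that comparison, 6.62% were called higher in U and 8.61% lower. The other 4 (Ppargc1a, Prdm16, Dio2 and Fabp3) had log2 fold changes of 0.10 to 1.46 that did not pass, and that of Dio2 turned to -0.20 when scaled by library totals alone. With the mouse as a replicate block, Ppargc1a and Fabp3 were also called higher in U (FDR of 2.556e-05 and 0.0119), as they were with a spread for each group, which makes 6 calls. Counts summed per mouse gave 4 calls, without these 2 genes. In the same comparison 9 of 12 urothelium markers (median log2 fold change -2.49), 5 of 10 smooth muscle markers (median -1.76) and 3 of 12 skeletal muscle markers (median -0.69) were called lower in U and none higher. The urothelium markers summed to 22727 to 23773 CPM in untreated bladder and 1750 to 3520 CPM in U, and their part in the member values was not tested. In bulk tissue, fewer cells of a type and less RNA per cell cannot be told apart.

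Adrb3, the receptor at the head of the pathway, had the highest level per kilobase of exon of the 8 genes in U, with a median of 177 CPM per kilobase. It lies at chr8:27225776-27250616 on the minus strand of GRCm38, and in 17 libraries its deposited value was fractional, which the overlapping antisense gene Gm45470 leaves uncertain. Its lowest, median and highest levels in U were 484, 599 and 661 CPM, and the 3 untreated bladders had 4.60, 16.3 and 4.45 CPM. The groups did not overlap, with a log2 fold change of 6.44 ± 1.82 (SE; edgeR FDR = 0.0158). In mice given BBN the level was spread over a wide range, with 2.80, 61.7 and 467 CPM as lowest, median and highest in UN. In UT these were 0.216, 6.40 and 381 CPM. All 11 UT and all 7 UN libraries lay below all 6 U libraries, and the share of all genes so separated was not computed. UT against U gave a log2 fold change of -3.55 ± 1.07 (SE; edgeR FDR = 0.0104), and UN against U gave -2.05 ± 1.21 (SE; edgeR FDR = 0.263), which did not pass. UN and U libraries fitted alone gave an FDR of 0.1003 for Adrb3, and with a spread estimated for each group separately its FDR was 0.0136 at a log2 fold change of -3.51.

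Ppargc1a, the coactivator of mitochondrial genes, was held within 16.1 to 23.7 CPM in U, with a median of 19.1 CPM. Its lowest, median and highest levels were 5.14, 19.5 and 44.7 CPM in UN and 0.504, 8.45 and 47.3 CPM in UT. The ranges of both BBN groups enclosed that of U, 8 of 11 UT libraries lay below every U library, and the log2 fold change of UT against U was -0.91 ± 0.57 (SE; edgeR FDR = 0.205). Its highest UT value came from UT 4, which also held kidney tubule transcripts (values beside Fabp3). Without UT 4, Ppargc1a was called lower in UT than in U (log2 fold change -1.33, FDR = 0.0446) and than in UN (-1.67, FDR = 0.0949).

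Prdm16, a regulator of brown fat identity that many other tissues also express, was the lowest of the 8 genes per kilobase in U, at a median of 1.26 CPM per kilobase. It ranged from 4.95 to 12.3 CPM in U with a median of 11.8, from 2.47 to 8.77 CPM in UN with a median of 5.29, and from 0.504 to 12.4 CPM in UT with a median of 5.29. Every group overlapped the others. UT was called lower than U (log2 fold change -1.12 ± 0.43, SE; edgeR FDR = 0.0363), a change that falls just short of the 2-fold limit without UT 2 (-0.999) and with RNA integrity as a covariate (-0.98). It was not called with library totals alone (-0.84, FDR = 0.105) or with counts summed per mouse (-1.15, FDR = 0.128) either.

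Dio2, the deiodinase, had group medians close to one another. They were 10.4 CPM in U, 7.95 CPM in UN, 8.38 CPM in UT and 12.2 CPM in untreated bladder, and UT 2 was listed at 0 counts, which allows up to 0.216 CPM. In BBN bladders Dio2 had 1.59, 6.15 and 10.1 CPM as lowest, median and highest. All 10 lay below the 3 untreated bladders (10.2, 12.2 and 13.3 CPM), a separation whose share over all genes was not computed. The fitted log2 fold change was -0.61 ± 0.55 (SE; edgeR FDR = 0.466) and did not pass. With a spread estimated for each group it was -1.12 with an FDR of 0.0132.

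**Figure D1:**
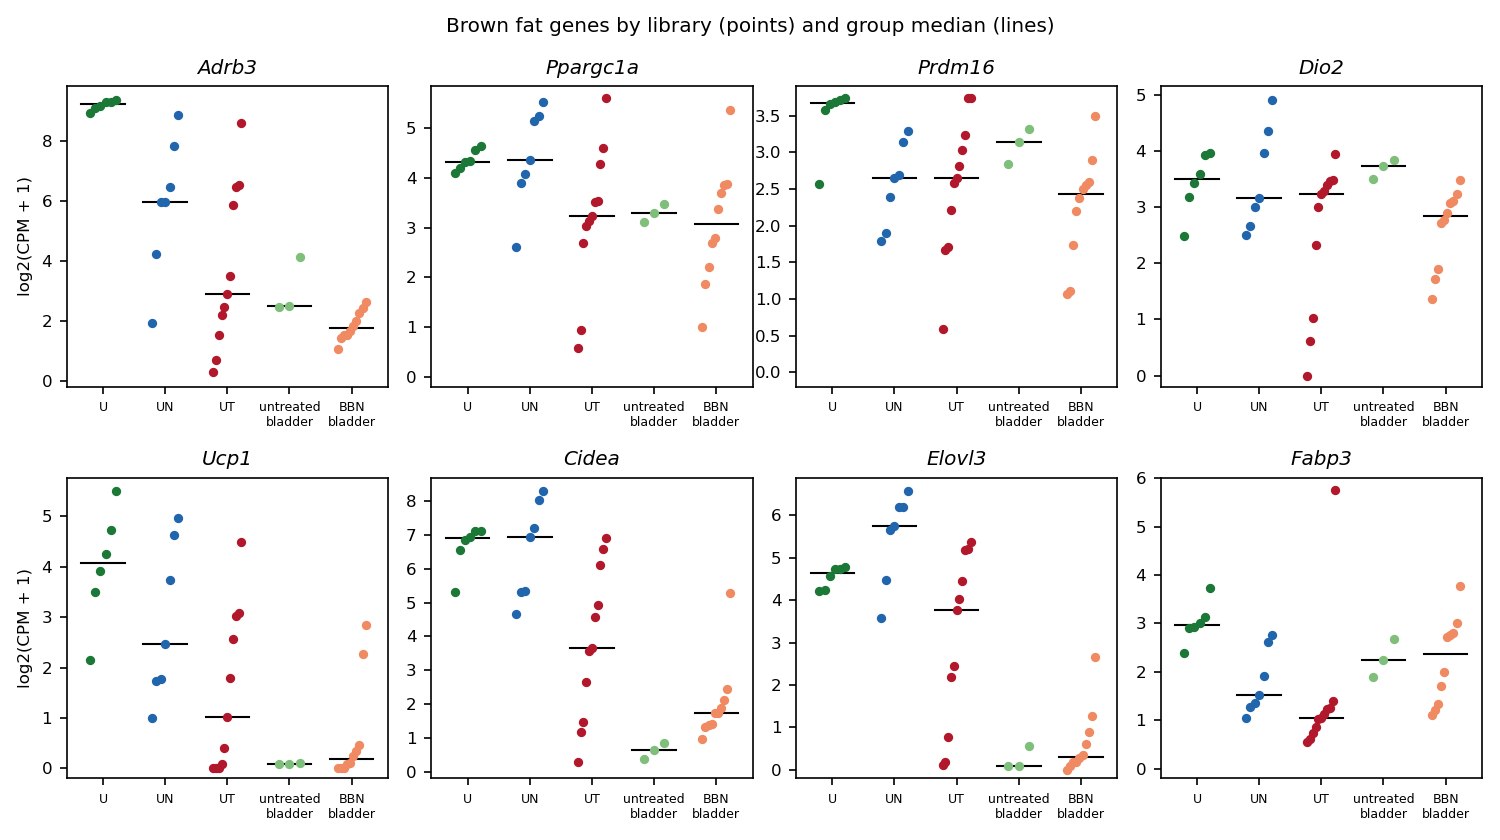
Each point is a library and each line a group median, on a log2(CPM + 1) axis, for U (6 libraries), UN (7), UT (11), untreated bladder (3) and BBN bladder (10). Adrb3 was the only one of the 8 genes whose UN and UT libraries all lay below U, and the share of all genes so separated was not computed. The single high Fabp3 point of UT is UT 4 (53.1 CPM), and the single high Cidea point of the BBN bladders is bladder 1 (38.2 CPM).

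Ucp1, the uncoupling protein, is the gene on which brown fat is usually told from white. It lies at chr8:83290352-83298452 on the plus strand of GRCm38, with 1636 bases of exon and no overlapping gene. The 300 bases around the RefSeq start of Ucp1 (build GRCm38.p6, chr8:83290098-83290397, plus strand) are shown with those of Dio2 (chr12:90738989-90739288, minus strand) and Ppargc1a (chr5:51567676-51567975, minus strand), since these 3 genes are textbook targets of the cAMP signal that the receptor sets off. RefSeq starts Dio2 upstream of the GENCODE gene at chr12:90724552-90738438. Each window runs from 250 bases before the start to 50 after it, 5′ to 3′, and capitals mark matches on either strand to TGACG, the core of the cAMP response element, or to AGGTCA, the nuclear receptor core.

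Ucp1: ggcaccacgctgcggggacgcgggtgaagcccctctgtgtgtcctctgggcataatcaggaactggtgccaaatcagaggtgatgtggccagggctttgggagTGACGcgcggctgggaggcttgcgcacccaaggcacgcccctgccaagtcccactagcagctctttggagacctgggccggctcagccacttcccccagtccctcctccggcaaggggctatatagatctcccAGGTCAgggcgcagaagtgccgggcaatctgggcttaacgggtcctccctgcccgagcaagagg

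Dio2: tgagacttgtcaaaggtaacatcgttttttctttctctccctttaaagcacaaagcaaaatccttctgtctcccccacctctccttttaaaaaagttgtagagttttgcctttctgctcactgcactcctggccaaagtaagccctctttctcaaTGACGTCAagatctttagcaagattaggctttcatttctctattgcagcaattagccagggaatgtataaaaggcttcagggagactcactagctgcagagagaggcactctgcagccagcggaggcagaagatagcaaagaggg

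Ppargc1a: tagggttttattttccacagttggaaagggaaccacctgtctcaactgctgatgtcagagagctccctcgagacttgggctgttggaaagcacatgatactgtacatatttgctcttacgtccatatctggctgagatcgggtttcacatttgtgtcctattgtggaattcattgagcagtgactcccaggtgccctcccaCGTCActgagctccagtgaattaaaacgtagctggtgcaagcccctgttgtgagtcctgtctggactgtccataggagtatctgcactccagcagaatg

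Dio2 alone among the 5 members with a RefSeq promoter window held the full element TGACGTCA, 95 bases before the start, which both core matches overlap, and 1.79% of 32851 mouse promoter windows of this length hold it. Ucp1 held TGACG 147 bases before the start and AGGTCA 14 bases before it. Ppargc1a held TGACG on the reverse strand, 49 bases before the start, Fabp3 held it 149 bases before the start, and Prdm16 matched neither. TGACG is in 20.8% and AGGTCA in 16.3% of all windows, so a match is common, and it is a match of letters and not a measured site. No window was at hand for Adrb3, Cidea and Elovl3.

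Ucp1 had 3.46, 16.03 and 44.2 CPM as lowest, median and highest in U, while each of the 3 untreated bladders held a single count. Pooled over libraries that is 1767 counts in U against 3 in the bladders, a CPM ratio of 290 with an exact 95% counting interval of 99.1 to 1408, and the fitted log2 fold change of 8.31 ± 2.49 (SE; edgeR FDR = 0.0227) depends on how such low counts are treated. Leaving out untreated bladder 1 or 3 raised the FDR to 0.105 and 0.107. The spread of Ucp1 within U was wide, and came from 1 mouse: its right ureter U 2R had 3.46 CPM and its left ureter U 2L 44.2 CPM, a ratio of 12.8. In the other 2 untreated mice the ureters differed 1.41-fold and 1.35-fold. Adrb3 differed only 1.22-fold between the ureters of that same mouse, Cidea 3.62-fold and Elovl3 1.47-fold.

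In UN, Ucp1 had 1.01, 4.49 and 30.4 CPM as lowest, median and highest, and in UT 0, 1.03 and 21.4 CPM. UT 2, UT 5R and UT 5L had 0 counts, which allows up to 0.216, 0.234 and 0.309 CPM. Of these, 7 of 11 UT libraries lay below every U library and none above. UT against U gave a log2 fold change of -2.49 ± 0.98 (SE; edgeR FDR = 0.0416), and it did not pass without U 2L (-2.03, FDR = 0.122). UN against U gave -0.71 ± 1.09 (SE; edgeR FDR = 0.692).

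All members but Ucp1 overlap genes on the opposite strand (such as B430212C06Rik for Cidea, Pitx3 for Elovl3, Zcchc17 for Fabp3, B230104I21Rik for Prdm16, Gm26512 for Dio2 and Gm42613 for Ppargc1a), and no use of strand in the counting is stated, so reads of such partners cannot be told apart. Cidea, the lipid droplet protein, was at 38.5, 119 and 139 CPM in U and at 0.301, 0.558 and 0.799 CPM in the 3 untreated bladders. The log2 fold change was 7.91 ± 1.88 (SE; edgeR FDR = 0.00455). UN matched U in its median (123 CPM) but spread from 24.3 to 315 CPM, and UT had 0.216, 11.7 and 119 CPM as lowest, median and highest. UT was called lower than U, at -1.99 ± 0.81 on the log2 scale (SE; edgeR FDR = 0.0486), and lower than UN, at -2.43 ± 0.79 (SE; edgeR FDR = 0.0860). Cidea was per kilobase the highest of the 8 genes in both UN and UT.

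Elovl3, the elongase, had its highest median in UN. U had 17.6, 24.2 and 26.3 CPM as lowest, median and highest, UN 10.9, 52.4 and 93.6 CPM, and UT 0.0794, 12.7 and 40.3 CPM. Of 7 UN libraries, 5 lay above every U library and 1 below, yet the log2 fold change of 1.27 ± 0.85 (SE; edgeR FDR = 0.328) did not pass with the spread shared by all ureters. It was called when UN and U were fitted alone (1.24, FDR = 0.0696). UT was called lower than UN, at -2.07 ± 0.71 (SE; edgeR FDR = 0.0971), but UT against U gave -0.80 ± 0.74 (SE; edgeR FDR = 0.398). The untreated bladders had 0.0697, 0.466 and 0.0602 CPM, or 9 counts against 2110 in U, a CPM ratio of 115 with an exact 95% counting interval of 60.7 to 253. The fitted value was 7.09 ± 1.74 (SE; edgeR FDR = 0.00581).

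Fabp3, the fatty acid carrier of heart, muscle and kidney, followed another course. It had 4.28, 6.83 and 12.4 CPM in U, 1.08, 1.87 and 5.75 CPM in UN, and 0.467, 1.08 and 53.1 CPM in UT. Of 11 UT libraries, 10 lay below every U library, and UT 4 alone lay above. With UT 4 in the fit the log2 fold change of UT against U was -0.71 ± 0.85 (SE; edgeR FDR = 0.518), and without it -3.14 (FDR = 7.815e-06). Against UN it turned from 0.76 (FDR = 0.581) to -1.67 (FDR = 0.0913). UT 4 also held 2922 CPM summed over 12 kidney tubule markers, against 3.39 to 11.97 CPM in the other 10 UT libraries. The tubule genes Umod, Slc34a1 and Aqp2 reached 931, 514 and 241 CPM in it. The part of kidney tissue in the Fabp3 and Ppargc1a values of UT 4 was not tested.

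**Figure D2:**
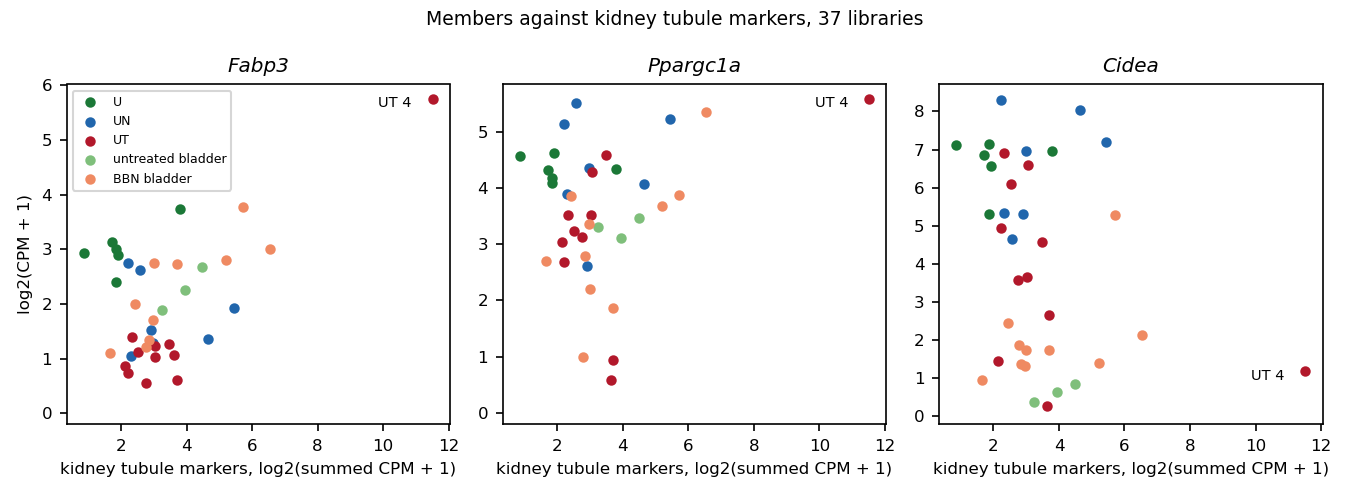
Each point is 1 of 37 libraries, with the summed CPM of 12 kidney tubule markers on the x axis and the level of Fabp3, Ppargc1a or Cidea on the y axis, both as log2 of CPM + 1, and colors give the group. UT 4 stands alone at 2922 CPM of tubule markers, with the highest Fabp3 (53.1 CPM) and Ppargc1a (47.3 CPM) of all libraries and a Cidea level of 1.27 CPM.

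Set by level per kilobase, the order of the 8 genes in U ran from Adrb3 (median 177 CPM per kilobase) and Cidea (107) to Elovl3 (12.2), Ucp1 (9.80), Fabp3 (8.29), Ppargc1a (2.89), Dio2 (1.78) and Prdm16 (1.26). Adrb3 lay above Cidea and Cidea above Elovl3 in 6 of 6 libraries without overlap, while Elovl3 exceeded Ucp1, and Ucp1 exceeded Fabp3, in 4 of 6 libraries with ranges that overlapped. In UN the order was led by Cidea (110), Elovl3 (26.5) and Adrb3 (18.3), with Cidea above Elovl3 in 6 of 7 libraries and Elovl3 above Adrb3 in 3 of 7. In UT it was Cidea (10.5), Elovl3 (6.42) and Adrb3 (1.90), with Cidea above Elovl3 in 11 of 11 libraries and Elovl3 above Adrb3 in 5 of 11. All neighbors in both orders had overlapping ranges. The untreated bladder was led by Fabp3 (4.57) and Dio2 (2.096), and Ucp1 (0.0407) and Elovl3 (0.0353) came last.

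The cancer side and the noncancer side of BBN-treated mice were compared next. Of the 8 genes, 2 were called lower in UT than in UN (Cidea and Elovl3) and 0 higher, where 4.2% of all 15658 genes tested were called lower and 1.32% higher. The other 6 did not pass, with log2 fold changes of -1.77 ± 0.95 (SE) for Ucp1, -1.503 ± 1.01 for Adrb3, -1.24 ± 0.55 for Ppargc1a, -1.13 ± 0.58 for Dio2, -0.15 ± 0.42 for Prdm16 and 0.76 ± 0.86 for Fabp3 (edgeR FDR from 0.167 to 0.847). The Prdm16 value turned to 0.18 when scaled by library totals alone. DESeq2 called Cidea and Elovl3 and also Fabp3, which was then lower in UT (-1.42, FDR = 0.0158). The median over the 8 genes was -1.37, beside -0.02 over all genes. Smooth muscle markers moved the same way, with 6 of 10 lower in UT than in UN (median -1.39), led by Myh11 (-2.27), and 8 of 10 lower in UT than in U (median -1.72). They summed to 396 to 2809 CPM in UT, 414 to 7721 CPM in UN and 2209 to 4042 CPM in U, and their part in the member values was not tested. For 7 mice both sides were sequenced, and in these Cidea was lower on the cancer side in 7 of 7, Fabp3 in 6 of 7, Adrb3, Elovl3 and Ppargc1a in 5 of 7, and Ucp1, Dio2 and Prdm16 in 4 of 7.

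The mean difference within mice on the log2(CPM + 1) scale was -2.52 ± 3.37 (SD, n = 7) for Cidea, and its size rested on mice 2 and 4. In mouse 2 Cidea went from 262 CPM on the noncancer side to 0.216 CPM on the cancer side, and in mouse 4 from 315 to 1.27 CPM. In the other 5 mice the pairs were 24.3 and 11.7, 38.7 and 22.9, 147 and 119, 39.4 and 29.8, and 123 and 95.5 CPM. Elovl3 was higher on the cancer side in mice 3 (35.6 against 21.4 CPM) and 7 (35.9 against 10.9 CPM). UT 2 and UT 4 had 191 and 442 CPM summed over 15 genes that white and brown adipocytes share, against a UT median of 18704 CPM. UN 2 stood apart from the other UN libraries with 37.2 CPM summed over the 12 urothelium markers, against 1124 to 10534 CPM in the others and 9255 CPM in UT 2, and it had the highest adipocyte sum of UN (97936 CPM).

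With the mouse as a replicate block, 0 of the 8 genes were called between UT and UN, and the FDR of Cidea rose to 0.728 at a log2 fold change of -1.98. The 2 calls also depended on single libraries. Without UT 9, the count was 4 (Ucp1 at -2.62 and Adrb3 at -2.74 joined, with FDR of 0.0699 and 0.0663). UT 9 had the highest adipocyte sum (68238 CPM) and the lowest urothelium marker sum (1270 CPM) of the UT libraries. It was 3 without UN 3, 1 without UN 1, UT 6 or UT 8, and 0 without UT 2, UT 3, UT 5R, UT 5L, UT 10, UN 2, UN 4, UN 6 or UN 9. Without UT 4 it was 2, but the genes called were Ppargc1a and Fabp3 in place of Cidea and Elovl3. Across all 18 such fits the Cidea value stayed between -2.83 and -2.097 and that of Elovl3 between -2.33 and -1.90.

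**Figure D3:**
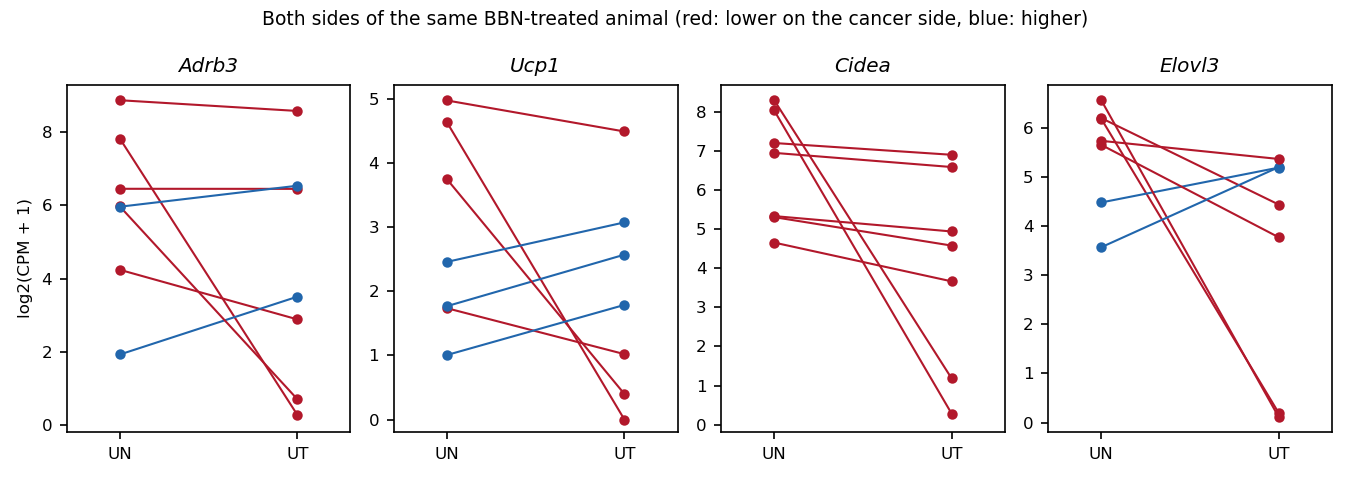
Lines join the noncancer side (UN) and the cancer side (UT) of the same mouse for 7 mice, on a log2(CPM + 1) axis, red where UT was lower and blue where it was higher. Cidea was lower on the cancer side in 7 of 7 mice, Adrb3 and Elovl3 in 5 of 7 and Ucp1 in 4 of 7, and 2 mice (2 and 4) show the steepest falls of Cidea and Elovl3.

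Against the ureters of untreated mice, UT was lower in 4 of the 8 genes (Adrb3, Ucp1, Cidea and Prdm16) and higher in 0, where 12.3% of all genes tested were called lower and 18.7% higher. All 8 fold changes were negative in that fit, with a median of -1.02 beside 0.11 over all genes. Counts summed per mouse, so that both ureters of an untreated mouse entered once, left 1 call (Adrb3), while limma-trend, a spread for each group and a random effect for mice each called all 8 lower. The summed level of the 15 shared adipocyte genes was 86350 to 120069 CPM in U, 17931 to 97936 CPM in UN and 191 to 68238 CPM in UT, and the 12 urothelium markers summed to 1750 to 3520 CPM in U, 37.2 to 10534 CPM in UN and 1270 to 11966 CPM in UT. The part of these tissue shares in the member values was not tested.

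The comparison of UN with U shares the 6 U libraries with that of UT with U. UN and U did not differ by a call in any of the 8 genes (0 higher and 0 lower by edgeR, and 0 at an unadjusted p under 0.05), where 12.5% of all genes were called higher and 1.21% lower. DESeq2 called 1 (Fabp3 lower, -1.51, FDR = 0.00580) and limma-trend 0. UN and U fitted alone gave 3 (Elovl3 higher, Prdm16 and Fabp3 lower). Without UN 6 the count was 1 (Prdm16, -1.40, FDR = 0.0558). Library codes fall into separate ranges, and within the first, which holds mice 1 to 7 and the untreated mice, the counts were 0 for UT against UN, 4 for UT against U, 1 for UN against U and 1 for the bladders.

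**Figure D4:**
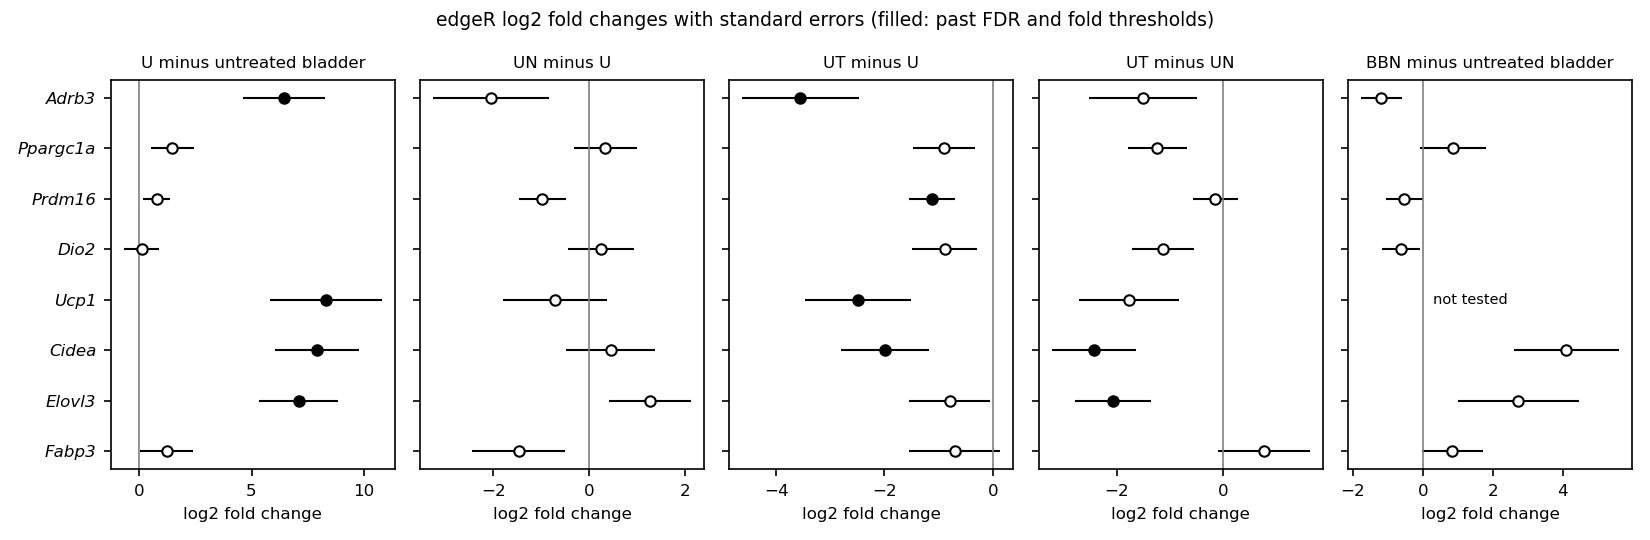
Points are edgeR log2 fold changes and bars standard errors for the 8 genes in 5 comparisons, with filled points where the FDR was under 0.1 and the change at least 2-fold, and each panel has its own x axis. Filled points are 4 in U against untreated bladder, 0 in UN against U, 4 in UT against U, 2 in UT against UN and 0 in the bladders, where Ucp1 was too low to be tested.

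In the bladder, BBN left the 8 genes without a call (0 higher and 0 lower of 7 tested by edgeR, and 1 at an unadjusted p under 0.05), where 7.61% of all 18050 genes tested were called higher and 5.74% lower. DESeq2 called 1 higher (Cidea) and limma-trend 0. Cidea had 0.937, 2.34 and 38.2 CPM as lowest, median and highest in BBN bladders. All 10 lay above the 3 untreated bladders, a separation whose share over all genes was not computed. The log2 fold change of Cidea, 4.10 ± 1.504 (SE; edgeR FDR = 0.105), missed the limit. Without BBN bladder 1 it was 2.45 (FDR = 0.0522), and without BBN bladder 8 or 10 it was also called (FDR of 0.0938 and 0.0871). Adrb3 was 1.08 to 5.21 CPM and lay below all untreated bladders in 9 of 10 libraries (log2 fold change -1.18 ± 0.58, SE; edgeR FDR = 0.188). Untreated bladder 2 had 16.3 CPM against 4.60 and 4.45 CPM in the other 2, and without it the value was -0.33 (FDR = 0.813).

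Ucp1 in BBN bladders was near 0 in most libraries, with a median of 0.129 CPM. Bladders 6, 9 and 10 had 0 counts, which allows up to 0.271, 0.199 and 0.216 CPM. Bladders 1 and 3 stood above the rest with 24 and 22 counts, or 3.79 and 6.18 CPM, and both belong to the 3 with under 8000000 counts. Bladder 1 also had the highest adipocyte sum of the bladders (6793 CPM) and bladder 3 the highest kidney tubule sum (91.9 CPM), and skeletal muscle markers ran from 19.6 to 205 CPM in BBN bladders and from 225 to 275 CPM in untreated ones. The part of these in Ucp1 was not tested. RNA integrity entered a fit only for the ureters. Its part in the bladder values, and in comparisons that use them, was not tested.

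The response of the noncancer ureter to BBN was set against that of the bladder in an interaction term. It was called for 0 of the 8 genes (1 at an unadjusted p under 0.05, and 0 by DESeq2 and by limma-trend), where 1.74% of all genes were called with a higher and 0.469% with a lower response in the ureter. The largest estimates were -4.94 ± 2.49 (SE; edgeR FDR = 0.382) for Ucp1 and -3.59 ± 1.73 (SE; edgeR FDR = 0.360) for Cidea. Without BBN bladder 1 the Cidea estimate was -1.89, and without all libraries under 8000000 counts those of Ucp1 and Cidea were -1.04 and -1.87.

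The summed level of adipocyte genes differed between ureter libraries, so the members were also set against Adipoq, the gene of the hormone adiponectin that white and brown adipocytes both make. In U, Elovl3 had 0.538% to 0.938% of the Adipoq counts, in UN 1.94% to 6.59% and in UT 1.20% to 9.52%, so that all 7 UN and all 11 UT libraries lay above all 6 U libraries. The median in UN was 6.13 times that in U. Adrb3 went the other way, with 15.2% to 22.8% of Adipoq in U and below that range in 6 of 7 UN and 9 of 11 UT libraries. It was above the range in 1 of 11 UT libraries (UT 4, with 8 counts). Cidea was above the U range (1.16% to 4.997%) in 5 of 7 UN and 6 of 11 UT libraries. Ucp1 was inside the U range (0.104% to 1.25%) in 7 of 7 UN libraries, and in UT it was below in 3 of 11 and above in 1. Ppargc1a was above all U libraries in 5 of 7 UN and 10 of 11 UT libraries, and below in 1 of 11 UT. Dio2 was above in 5 of 7 and 9 of 11, and below in 1 of 11 UT. Prdm16 was above in 3 of 7 and 8 of 11, and below in 1 of 7 UN. Fabp3 was above in 3 of 7 and 5 of 11 and below in 2 of 7 and 3 of 11. These ratios were looked at after the values were known and have no test. Adipoq itself had log2 fold changes against U of -2.67 in UT and -0.97 in UN (edgeR FDR of 0.0152 and 0.525). The median over all genes was 0.11 and 0.13. A ratio to Adipoq can thus rise without a rise of the gene. How often other genes lay above the U range was not computed. In UT, Adipoq fell to 21 counts in the lowest library (UT 2). Elovl3 had 2 counts there and 1 in UT 4, so the UT ratios are loose.

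**Figure D5:**
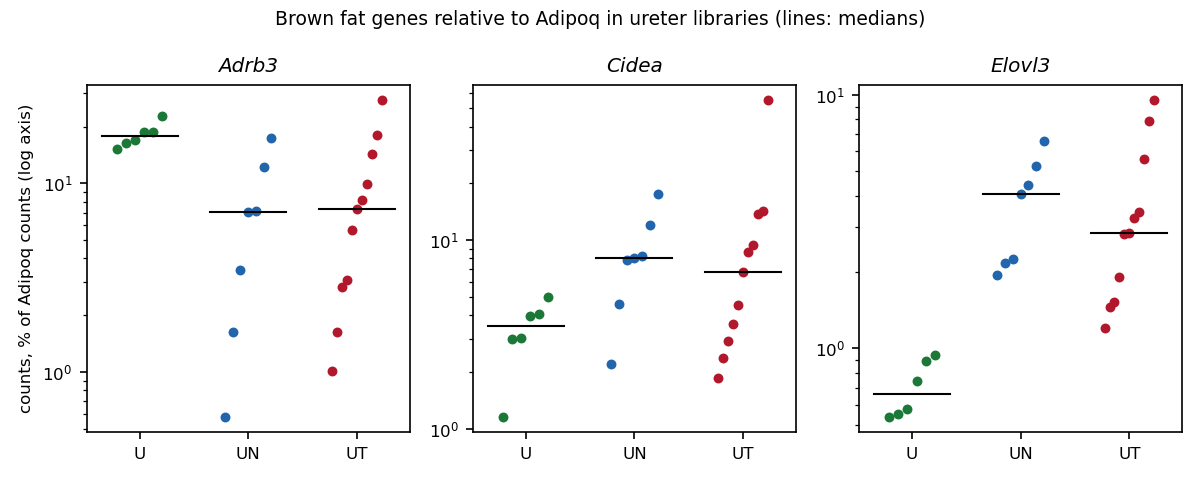
Points are ureter libraries, lines group medians, and the log y axis gives the counts of Adrb3, Cidea or Elovl3 as a percent of the Adipoq counts of the same library. Elovl3 in U (0.538% to 0.938%) lies below every UN and UT library. Adrb3 in U (15.2% to 22.8%) lies above 6 of 7 UN and 9 of 11 UT libraries and below 1 of 11 UT libraries. Adipoq itself was lower in UT than in U (log2 fold change -2.67), so a ratio can rise without a rise of the gene.

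Other genes of brown adipocytes moved alongside. Of 15 tested outside the 8, 13 were called lower in UT than in U, led by Cox8b (a cytochrome oxidase subunit of heat-making fat and muscle, log2 fold change -3.07), Otop1 (-2.66), Nrg4 (a secreted factor, -2.57) and Pdk4 (-2.28), and 1 was higher, Slc27a2 (3.99), which kidney tubules also express. Slc27a2 reached 1016 CPM in UT 4, while its median was 1.01 CPM in UT and 4.60 CPM in U. Against UN, Cox8b (-3.49), Cox7a1 (-2.77) and Nrg4 (-1.99) were called lower, and UN against U gave 0 calls. With the mouse as a replicate block no gene of the whole table was called lower in UT than in UN, these and the smooth muscle markers included. In U against untreated bladder 7 of 17 were higher and 0 lower, with Cox8b (8.14), Cpt1b (5.73), Otop1 (5.09) and Nrg4 (5.01) leading. Zic1 and Lhx8, list genes that mark the classical interscapular depot, were at 0 in 6 and 4 of the 6 U libraries. They were picked from the list after their values were seen, and the kind of adipocyte in U was not tested.

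Among genes common to white and brown fat, 15 of 15 were called lower in UT than in U (median log2 fold change -2.59), led by Lep, Plin4, Dgat2 and Car3, 0 of 15 in UN against U (median -1.07), and 14 of 15 higher in U than in untreated bladder (median 5.89). Between UT and UN, 1 was called (Cebpa lower). Of 16 genes of mitochondrial fatty acid oxidation, 15 were lower in UT than in U, led by Cpt2 (-2.16), Acadm, Decr1 and Hadhb, and 14 were higher and 1 lower (Cpt1a, -1.51) in U than in untreated bladder. The adrenergic lipolysis pathway downstream of Adrb3 had 7 of 15 lower in UT than in U, led by Mgll (-2.69), Lipe (-2.59), Prkar2b (-2.45) and Pnpla2 (-2.34).

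The relatives of UCP1 parted. Ucp3 was lower in UT than in U (log2 fold change -1.92, FDR = 0.0188) and than in UN (-1.86, FDR = 0.0923), and its levels had a median of 12.96 CPM in U, 9.20 in UN and 2.22 in UT. Ucp2, which leukocytes also express, was higher than in U in UT (1.41, FDR = 8.354e-04) and in UN (1.13, FDR = 0.0211), with medians of 143 CPM in U, 461 in UN and 471 in UT. Of 9 leukocyte markers, 6 were higher in UT and 3 in UN than in U. In U against untreated bladder Ucp2 was lower, as were 9 of 12 urothelium markers, while 0 of 9 leukocyte markers were called. The part of these cells in Ucp2 was not tested. Genes of creatine-dependent heat production also parted in UT against U, where Ckmt1 (2.66), Gatm (1.60) and Slc6a8 (1.18) were higher and Ckb (-1.93) lower. Ckmt1 and Slc6a8 were also lower in U than in untreated bladder, and the part of other tissues in these values was not tested. Of 4 beige adipocyte genes tested in UT against U, Slc36a2 (-2.51) and P2rx5 (-1.499) were lower and Tmem26 (1.43) higher.

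Across all 37 libraries, the genes whose pattern was most like that of Ucp1 were Aqp7 (Spearman rho of 0.917 on log2 of CPM + 1), 4931408D14Rik, Clstn3, Gys2, Slc13a4, Nat8l, Prkd1, Acss3, Ddo and Ucp3 (0.889), of 18156 genes ranked. Ucp1 itself had rho of 0.849 with Cidea, 0.832 with Adipoq, 0.777 with Adrb3, 0.342 with Fabp3 and 0.245 with Prdm16. Within the 11 UT libraries rho with Cidea was 0.890. For the mean z-score of all 8 genes, the closest included Chpt1 (0.95), Sycp3, Pex11a, Lpin1, Lpl, Ppp1r1a, Clstn3, Fam13a and Nxnl1 (0.917). These values describe libraries that share tissue, fat content and depth, and groups that differ raise them.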

How the data were processed

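Whole-tissue RNA-seq was made from total RNA with a SMARTer library kit. The submitters' processing notes name TopHat2 2.1.1, Cuffdiff 2.2.1 and the GRCm38 (mm10) build, and the counting program is not given in the sources used here. The authors deposited 1 table of estimated counts per gene symbol, of which 21.1% of the nonzero values were fractional, so they were rounded to whole numbers. Genes were tested with edgeR 4.0.16 (quasi-likelihood, TMM factors, filterByExpr) in R 4.3.3, with Benjamini-Hochberg adjustment over all genes tested, and called at an FDR under 0.1 and a change of at least 2-fold. UT, UN and U entered 1 fit, the bladders another, and contrasts across tissues a fit of all 37 libraries. DESeq2 1.42.0 and limma 3.58.1 gave alternatives, as did other scaling, filters, covariates, groups of libraries and fits without single libraries. The steps were tested on simulated data.

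The members and gene lists were chosen with earlier results of these data known. All 8 members were reported. Overlap of groups was examined for these 8 genes only, so its share over all genes is not known. From each list, at most the 4 called genes with the largest change were named, with Ucp2, Ucp3 and the 10 genes most like Ucp1 and most like the members' mean. Zic1, Lhx8 and the ratios to Adipoq were chosen after their values were seen. Some genes that the rule would name are not reported here. Gene positions and exon lengths came from GENCODE and promoters from RefSeq. Counting intervals are exact and, like the floor of 3 counts, cover counting error only.

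The labels give libraries of the same mouse. Deviations from group means correlated at a median r of -0.0046 in 7 UT and UN pairs of the same mouse (-0.143 to 0.667), against -0.0116 in 70 other pairs, at 0.006 in 6 pairs of untreated ureter and bladder, against -0.0294 in 12 others, and at -0.104 in 7 pairs of UN and BBN bladder (-0.399 to 0.628), against 0.144 in 63 others. Same-mouse libraries are paired by the labels and not by these values. No 2 libraries of a group were close enough to be copies.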

Additional observations from a re-analysis of the deposited data

Results flagged for a closer look

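A single library stood apart in 4 of the 24 combinations of gene and group (4 to 10 libraries) that were examined, and about 1 in 20 would do so by chance. Cidea in the untreated ureter U 2R was 38.5 CPM, the lowest of 6, and the next was 93.4 CPM. U 2R also had the lowest Ucp1 of its group (3.46 CPM), while its Adrb3 was 543 CPM. Prdm16 in U 3L was 4.95 CPM, the lowest of 6, and the next was 10.9 CPM. In BBN bladder 1, Cidea was 38.2 CPM against 4.49 CPM in the next of 10, and Elovl3 was 5.37 CPM against 1.42 CPM. That library had the highest adipocyte sum of the bladders (6793 CPM) and a total under 8000000 counts. The part of either, or of RNA integrity, was not tested.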

How the results depend on the processing

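The number of the 8 genes called between UT and UN was 2. It was 0 with limma-trend, library totals, a spread for each group (chosen after seeing the data), the groups alone, all 37 libraries in 1 fit, libraries under 8000000 counts left out, the first range of library codes, RNA integrity as a covariate, the replicate block, the mouse as a random effect and counts summed per mouse. It was 3 by DESeq2 (Fabp3 joined, lower), 1 with no filter, 4 with the 10 UT libraries other than UT 9 (taken here as the one the study does not count, and the same fit as leaving out UT 9 alone) and 0 to 4 with single libraries left out. Between UT and U it was 4, with 8 by limma-trend, a spread for each group and the random effect, 1 with counts summed per mouse, 3 with library totals or with RNA integrity, and 3 to 6 with single libraries left out. Between UN and U it was 0, with 3 for a spread for each group and for the groups alone, 2 with the random effect, 1 by DESeq2, without libraries under 8000000 counts and in the first code range, and 0 to 1 with single libraries left out. In the bladders it was 0, with 2 for a spread for each group and without libraries under 8000000 counts, 1 by DESeq2, library totals, all 37 libraries and the first code range, and 0 to 1 with single libraries left out. Between untreated ureter and bladder it was 4, 6 with the replicate block and with a spread for each group (Ppargc1a and Fabp3 joined both times) and 3 to 4 with single libraries left out. The replicate block was fitted for UT against UN and for untreated ureter against bladder, and in the latter it changed no call of a member but those of Ppargc1a and Fabp3. The cause of these shifts was not tested.

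Signs turned as follows. For UT against UN, Fabp3 was -1.42 by DESeq2, -0.92 by limma-trend and with a spread for each group, -0.55 with the replicate block, -0.83 with the random effect and -1.67 without UT 4 (range up to 0.99), and Prdm16 was 0.18 with library totals, 0.23 without libraries under 8000000 counts or without UN 6, and 0.12 with RNA integrity. For UN against U, limma-trend gave Cidea -0.13, a spread for each group gave Cidea -0.17, Ppargc1a -0.15 and Dio2 -0.046, the random effect gave -0.16, -0.21 and -0.042, and leaving out libraries under 8000000 counts or UN 6 gave Ppargc1a -0.044 and Dio2 -0.019 (range for Dio2 up to 0.39). In the bladders, Ppargc1a and Fabp3 were -0.45 and -0.30 with a spread for each group and -0.53 and -0.22 without libraries under 8000000 counts. Dio2 in untreated ureter against bladder was -0.20 with library totals and -0.037 without U 2L (range up to 0.25). In the interaction, Ppargc1a was 0.027 by limma-trend, 0.048 with library totals, 0.34 with a spread for each group, 0.52 without libraries under 8000000 counts, 0.26 with the random effect and 0.14 without BBN bladder 3 (range from -0.80), and Elovl3 was 0.21 without libraries under 8000000 counts and 0.22 without BBN bladder 1 (range from -2.60). Ranges are over fits that leave out 1 library. Of 752 fold changes with 1 library left out, 708 kept their direction and side of the threshold, and of 619 under other settings, 525.

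Over all genes, calls between UT and UN were 864 (23.8% higher), but 26 (80.8% higher) with library totals, 55 by limma-trend, 1391 by DESeq2, 1390 with no filter, 1683 without UT 9, 492 with all 37 libraries, 26 in the first code range, 13 summed per mouse, 6 without libraries under 8000000 counts, 2 with the random effect, 1 with the replicate block, 0 with the groups alone, a spread for each group or RNA integrity, and 5 to 1854 with single libraries left out. UT against U gave 4845 (60.3% higher), 74.0% with library totals. UN against U gave 2139, but 1301 with the random effect and 157 summed per mouse. The bladders gave 2409, but 5799 by DESeq2, 5670 with a spread for each group, 5662 with all 37 libraries, 4401 in the first code range and 1024 to 2711 with single libraries left out. Untreated ureter against bladder gave 2889 (43.5% higher, 29.3% with library totals), but 5673 with a spread for each group, 4602 with the replicate block, 1528 summed per mouse and 1709 to 2681 with single libraries left out. The interaction gave 419 (78.8% higher, 66.8% with RLE factors), but 925 by DESeq2 (47.6% higher), 1711 with a spread for each group, 657 without libraries under 8000000 counts, 636 in the first code range, 638 with the random effect, 53 summed per mouse and 129 to 684 with single libraries left out. Scaling by library totals moved the median log2 fold change of all genes by 0.22, 0.28, -0.28 and -0.31 in UT against UN, UT against U, the bladders and untreated ureter against bladder. A random effect could not be used in the bladders, with 1 bladder per mouse. Ucp1 in the bladders rests on few counts, with 4 or fewer in 11 of 13 libraries.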
